A study of Mus musculus with 6 samples.

Results

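Cholesterol and fatty acid synthesis genes were followed in mouse mammary basal cells, in 28 of 22180 genes measured. They are enzymes and regulators driven by sterol regulatory element binding proteins (SREBPs), taken from a list of 30 by gene name and not by measured values. The array rows of the other two, Idi1 and Scd2, are shared with further genes in the annotation and were not used. Of the 28, 14 are enzymes of the mevalonate and sterol arm, 10 are enzymes of the fatty acid arm, and 4 are regulators or a sterol carrier. The cells came from freshly digested glands of virgin females aged 8 to 14 weeks and were sorted as basal, after beads had removed most CD45, CD31 and TER119 positive cells. One genotype was wild type and the other lacked Trp53, p16ink4a and p19arf (Trp53-/-, p16ink4a-/- and p19arf-/-), where p16ink4a and p19arf are both products of the gene Cdkn2a. Each genotype had 3 biological replicates with 1 whole-transcript array each, and the design poses the question of which transcripts differ between them. Strain, the alleles' design and the cells in which the deletions arose were not given in the sources used here.

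The pathway builds lipids from acetyl-CoA. The sterol arm condenses it to mevalonate, turns mevalonate into isoprene units, joins these to squalene and shapes squalene into cholesterol. The fatty acid arm carboxylates acetyl-CoA, assembles palmitate, and lengthens and desaturates the chain. SREBPs are held in the endoplasmic reticulum by Insig proteins while sterols are plentiful, and are cut and released to the nucleus when sterols are scarce. Srebf2 encodes the form best known for sterol genes and Srebf1 the forms best known for fatty acid genes. In the mammary gland the pathway is known above all for milk fat made by luminal cells in lactation. p53 is known to repress the mevalonate pathway in some cells by limiting Srebf2 protein maturation.

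Cdkn2a had log2 levels of 5.84 to 6.48 in wild type and 6.25 to 6.39 in knockout samples. Whether its probes touch the deleted part is not given in the sources used here, so this gene did not check the labels. Trp53 was not analysed here. Krt14, the basal keratin, read 13.21 to 13.51 on the 6 arrays, and the 17 basal markers averaged 9.90 to 10.22. The median level per array was 5.22 to 5.39, and arrays correlated across genes with r of 0.971 to 0.988. Arrays have no read depth, and their number limits the precision.

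Promoters are shown first, because binding sites for SREBPs and their partners are what the pathway's genes are known to share. RefSeq promoter windows (GRCm38.p6) matched 23 of the 30 listed genes. The bases from 250 before the start site to the last base before it were searched on both strands for TCACNCCAC, a form of the sterol regulatory element, and for CCAAT, the box bound by NF-Y, a known partner of SREBPs. GGGCGG, the Sp1 box, and CACGTG, an E-box, were searched too. The 5 windows below were chosen after their values were seen, for the gene of smallest p (Insig1), the gene whose groups did not overlap (Mvd), the gene of largest difference in the sterol arm (Nsdhl), the gene with a sterol element match (Hmgcs1) and the synthase of the fatty acid arm (Fasn). Capitals mark matches to TCACNCCAC and CCAAT on either strand, the latter reading ATTGG on the strand opposite. The Fasn window lies inside the annotated gene (chr11:120805958-120825166), and not upstream of the gene's outer end.
Insig1 promoter (chr5:28071162-28071411, plus strand): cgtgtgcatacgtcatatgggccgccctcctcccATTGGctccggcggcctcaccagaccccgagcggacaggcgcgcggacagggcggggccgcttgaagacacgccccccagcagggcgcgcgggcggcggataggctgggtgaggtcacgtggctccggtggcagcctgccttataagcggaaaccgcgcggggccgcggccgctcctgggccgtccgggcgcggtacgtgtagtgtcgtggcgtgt
Mvd promoter (chr8:122443423-122443672, minus strand): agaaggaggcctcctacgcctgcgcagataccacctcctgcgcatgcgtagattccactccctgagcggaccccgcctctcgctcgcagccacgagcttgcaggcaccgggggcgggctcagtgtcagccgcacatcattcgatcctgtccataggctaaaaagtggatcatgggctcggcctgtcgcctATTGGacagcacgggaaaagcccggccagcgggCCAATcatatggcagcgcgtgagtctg
Nsdhl promoter (chrX:72918271-72918520, plus strand): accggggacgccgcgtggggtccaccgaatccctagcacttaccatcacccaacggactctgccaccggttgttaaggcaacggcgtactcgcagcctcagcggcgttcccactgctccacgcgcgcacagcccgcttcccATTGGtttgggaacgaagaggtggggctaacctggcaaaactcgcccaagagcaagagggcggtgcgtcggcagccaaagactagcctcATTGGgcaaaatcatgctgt
Hmgcs1 promoter (chr13:119690101-119690350, plus strand): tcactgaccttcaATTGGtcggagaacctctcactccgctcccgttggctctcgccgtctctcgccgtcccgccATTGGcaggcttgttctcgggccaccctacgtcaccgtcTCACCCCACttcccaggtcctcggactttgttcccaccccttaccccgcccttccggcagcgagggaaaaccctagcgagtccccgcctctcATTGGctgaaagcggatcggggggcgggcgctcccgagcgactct
Fasn promoter (chr11:120824548-120824797, minus strand): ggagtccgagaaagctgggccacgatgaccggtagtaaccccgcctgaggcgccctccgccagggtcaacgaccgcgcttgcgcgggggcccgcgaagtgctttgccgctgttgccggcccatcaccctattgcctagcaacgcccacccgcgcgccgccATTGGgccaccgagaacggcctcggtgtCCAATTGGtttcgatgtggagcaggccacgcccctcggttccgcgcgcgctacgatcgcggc

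CCAAT stood in the windows of 19 of the 23 genes, against 37.5% of the 27025 genes with a promoter window. Shares of all genes in this paragraph are of that number. It was in 12 of 12 genes of the sterol arm that have a window (Idi1 among them), in 4 of 8 of the fatty acid arm (Acss2, Elovl5, Fasn and Me1) and in all 3 regulators with a window (Insig1, Srebf1 and Srebf2). In the Fasn window, a CCAAT match at 62 bases before that window's start site overlaps one on the other strand at 59 bases. GGGCGG stood in 18 of the 23 genes, against 35.4% of all genes, with 11 of 12 in the sterol arm and 4 of 8 in the fatty acid arm. CACGTG was in 5 of 23 (Dhcr7, Elovl5, Hsd17b7, Insig1 and Sc5d), against 6.86% of all genes. TCACNCCAC was in Hmgcs1 alone, 137 bases before its start site, against 1.22% of all genes. Genes with several start sites were counted once if any window held the match. That window could lie inside the gene, as for CCAAT in Dhcr7, Me1 and Srebf1. All windows of Srebf1, and the only windows of Acaca and Fasn, lay wholly inside the annotated gene. The counts by arm include these windows, so they do not compare upstream promoters alone. These are matches of letters in the windows, and occupancy was not measured.

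No lipid synthesis gene passed the test between genotypes. With limma's fit across all 22180 genes and Benjamini-Hochberg adjustment, 0 of 28 passed at an adjusted p under 0.05 in either direction (adjusted p = 1.0 for each), where 0.0% of all genes were called higher and 0.0% lower. At an unadjusted p under 0.05 there was 1 of 28, Insig1, which was lower, against 3.32% of all genes, 1.71% lower and 1.61% higher. With array weights, which let arrays count unequally in the fit, there were 4 of 28, Insig1, Msmo1 and Hsd17b7 lower and Fads1 higher, against 8.88% of all genes, 4.71% lower and 4.17% higher, and none passed after adjustment (limma adjusted p = 0.546 for each). In 18 of the 28 the knockout mean was lower and in 10 higher, against 51.7% and 48.3% of all genes. The median log2 fold change (knockout minus wild type) of the 28 was -0.07, and that of all genes was -0.01. In 1 of 28, Mvd, all knockout arrays lay below all wild type arrays, against 4.05% of all genes, and in 0 all knockout arrays lay above, against 3.63%. The 95% interval of the log2 fold change lay within a change of 1 either way in 25 of the 28, against 21113 of all 22180 genes. The exceptions among the members were Insig1, Msmo1 and Nsdhl. The intervals are not adjusted for the number of genes. With 3 samples a genotype, 0.1 is the smallest two-sided p that an exact permutation test can reach.

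**Figure D1:**
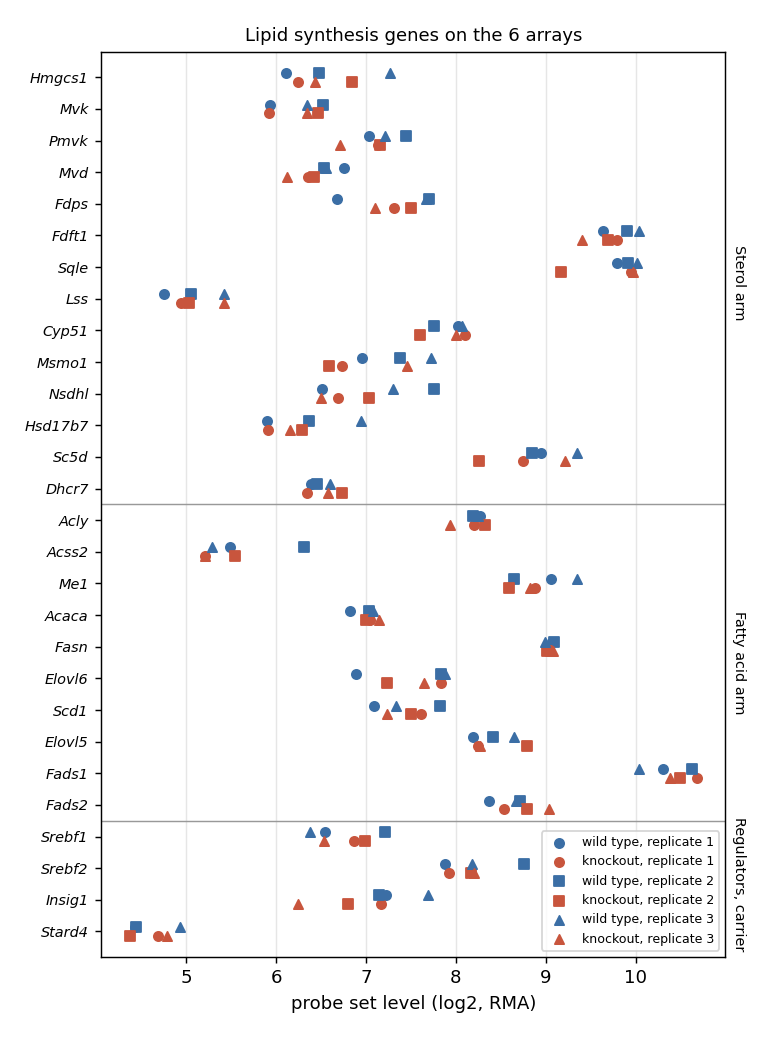
Level of each lipid synthesis gene (horizontal axis, log2 RMA probe set level) on the 3 wild type arrays (blue) and the 3 knockout arrays (red), with 1 symbol shape per replicate number and genes ordered by arm. The genotypes overlap in 27 of 28 genes, Mvd being the exception, and levels of different genes come from different probes and have no common scale.

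In the sterol arm 12 of 14 genes had a lower mean in the knockout (10 of 14 after quantile normalization and 14 of 14 with array weights), but the arrays overlapped. The weights were 0.60, 0.46 and 1.98 for wild type replicates 1 to 3, against 2.08, 0.89 and 0.99 for the knockout ones. Wild type replicate 3 and knockout replicate 1 thus counted most in the weighted fit. Values read on an array are log2 levels throughout, given for each replicate. Averaged over the 14 genes, the arm read 7.10, 7.44 and 7.61 in wild type replicates 1 to 3, against 7.15, 7.20 and 7.24 in the knockout ones. Wild type replicate 1 lay below every knockout array, and wild type replicates 2 and 3 lay above all of them. The group means were 7.38 ± 0.256 (SD, n = 3) and 7.20 ± 0.045, a difference of -0.18. That is smaller than the wild type SD, but the difference was -0.29 with array weights. The median log2 fold change of the 14 genes was -0.22. The median level over genes, taken on each array first, differed by -0.37 between genotypes. That median fell on different genes on different arrays, and their levels have no common scale. The difference of means rested on single arrays: it was -0.32 with 13 genes lower without wild type replicate 1, and -0.07 with 8 genes lower without wild type replicate 3. In sorted cells in bulk, fewer cells of a type and less RNA per cell cannot be told apart.

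Early steps of the sterol arm make mevalonate and activate it. Hmgcs1, which joins acetyl-CoA units to HMG-CoA, read 6.11, 6.48 and 7.26 in wild type replicates 1 to 3, against 6.24, 6.84 and 6.44 in the knockout ones. Its highest array was wild type replicate 3 and its lowest wild type replicate 1, and the log2 fold change was -0.11 (SE 0.293), SE standing for the moderated standard error. With array weights it was -0.49 (SE 0.274), outside the range of -0.37 to 0.21 found on leaving out 1 array. Mvk, mevalonate kinase, read 5.94, 6.53 and 6.35 in wild type replicates 1 to 3, against 5.92, 6.47 and 6.35 in the knockout ones, with nearly equal groups and a log2 fold change of -0.03 (95% interval -0.51 to 0.46). Pmvk, the kinase of the next step, read 7.03, 7.44 and 7.21 in wild type replicates 1 to 3, against 7.14, 7.15 and 6.71 in the knockout ones. Only knockout replicate 3 lay below all wild type arrays there, and the log2 fold change was -0.23 (SE 0.193). Mvd, the decarboxylase that makes isopentenyl diphosphate, read 6.75, 6.53 and 6.55 in wild type replicates 1 to 3, against 6.35, 6.42 and 6.12 in the knockout ones. All 3 knockout arrays lay below all 3 wild type arrays, the nearest of them by less than the range within either genotype, and the log2 fold change of -0.31 (SE 0.161) did not pass (limma adjusted p = 1.0, unadjusted p = 0.0841).

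Fdps and Fdft1 carry isoprene units on to squalene. Fdps, farnesyl diphosphate synthase, read 6.68, 7.70 and 7.66 in wild type replicates 1 to 3, against 7.31, 7.50 and 7.10 in the knockout ones. Wild type replicate 1 was the lowest of the 6 arrays and the other wild type arrays were the highest, so that the log2 fold change was -0.05 overall and -0.38 without that array. Fdft1, squalene synthase, read 9.64, 9.91 and 10.03 in wild type replicates 1 to 3, against 9.79, 9.70 and 9.41 in the knockout ones, with a log2 fold change of -0.23 (SE 0.172). Its knockout arrays 1 and 2 lay within the wild type range.

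From squalene on, 6 of 8 enzymes had a lower mean in the knockout. Sqle, squalene epoxidase and a rate-limiting step, read 9.79, 9.91 and 10.01 in wild type replicates 1 to 3, against 9.95, 9.17 and 9.97 in the knockout ones, and only knockout replicate 2 stood apart, below the rest. Its log2 fold change was -0.21, and 0.06 without that array. Lss, which closes the ring to lanosterol, read 4.75, 5.05 and 5.42 in wild type replicates 1 to 3, against 4.94, 5.03 and 5.42 in the knockout ones, and replicate 3 was highest in both genotypes. Cyp51, the lanosterol demethylase, read 8.03, 7.76 and 8.07 in wild type replicates 1 to 3, against 8.10, 7.60 and 8.00 in the knockout ones, lowest at replicate 2 in both genotypes. The log2 fold changes were 0.06 for Lss and -0.05 for Cyp51. Sc5d, a sterol desaturase, read 8.95, 8.85 and 9.34 in wild type replicates 1 to 3, against 8.75, 8.26 and 9.21 in the knockout ones, again with its lowest array at replicate 2 and its highest wild type array at replicate 3. Dhcr7, which completes cholesterol, read 6.39, 6.45 and 6.60 in wild type replicates 1 to 3, against 6.34, 6.74 and 6.58 in the knockout ones, with a log2 fold change of 0.07 (SE 0.166).

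Msmo1, Nsdhl and Hsd17b7 act together to take methyl groups off the sterol ring, and Msmo1 and Nsdhl had the largest differences of the sterol arm. They are described together because of their shared role, after their values were seen. Msmo1, the methyl oxidase, read 6.96, 7.37 and 7.72 in wild type replicates 1 to 3, against 6.73, 6.59 and 7.46 in the knockout ones. Knockout replicates 1 and 2 lay below all wild type arrays and knockout replicate 3 above wild type replicates 1 and 2, for a log2 fold change of -0.43 (SE 0.276) with a 95% interval of -1.05 to 0.20, and of -0.64 with array weights. Nsdhl, the dehydrogenase, read 6.51, 7.75 and 7.30 in wild type replicates 1 to 3, against 6.69, 7.03 and 6.49 in the knockout ones. Wild type replicate 1 lay between 2 knockout arrays, and the log2 fold change of -0.45 (SE 0.303) became -0.79 without that array and -0.17 without wild type replicate 2. Hsd17b7, the reductase, read 5.90, 6.37 and 6.94 in wild type replicates 1 to 3, against 5.91, 6.29 and 6.16 in the knockout ones. Wild type replicate 3 stood highest, and without it the log2 fold change of -0.28 became -0.014, while array weights gave -0.59. The mean of the 3 enzymes was 6.46, 7.16 and 7.32 in wild type, against 6.44, 6.64 and 6.70 in the knockout, and wild type replicate 1 stood between knockout replicates 1 and 2. Erg28, the scaffold that holds these enzymes together, is no member of the list and had a log2 fold change of 0.05.

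**Figure D2:**
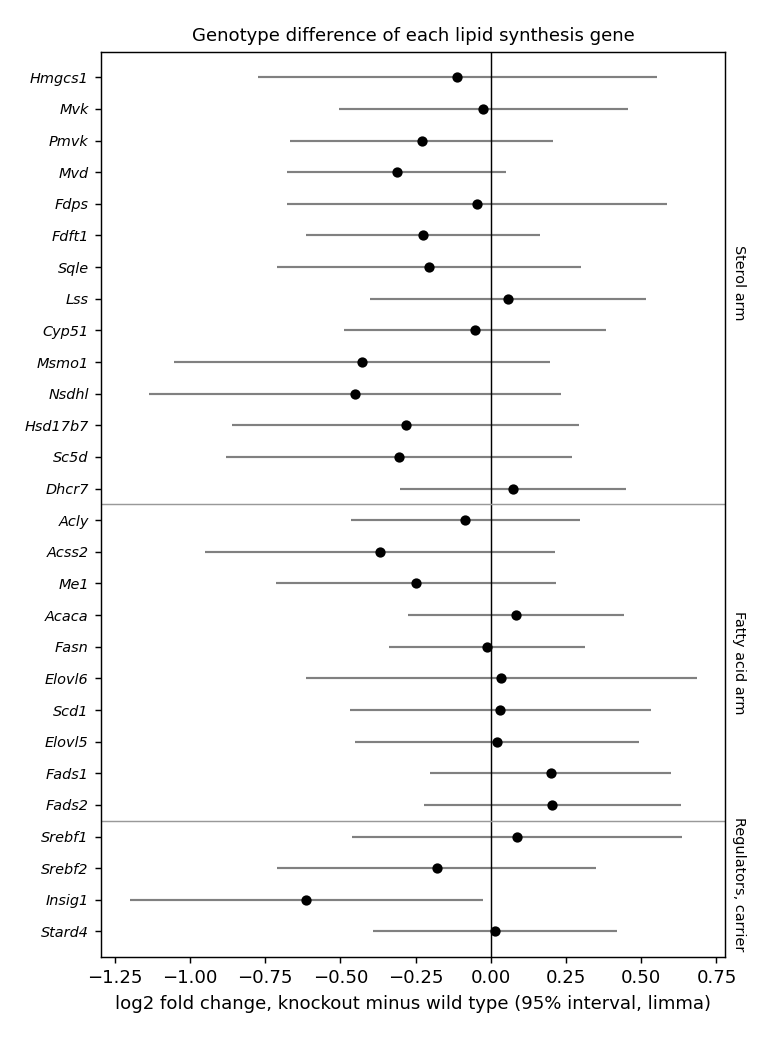
Log2 fold change of each gene, knockout minus wild type (points), with its 95% limma interval (lines), ordered by arm. In the sterol arm 12 of 14 points lie left of 0 (10 after quantile normalization) and in the fatty acid arm 4 of 10 (3 after it), and only the interval of Insig1 leaves out 0, before adjustment over genes.

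In the fatty acid arm the genotype means lay close together and the arrays overlapped in all 10 genes. Its mean over 10 genes was 7.95, 8.27 and 8.15 in wild type replicates 1 to 3, against 8.12, 8.13 and 8.07 in the knockout ones, or 8.12 ± 0.158 (SD, n = 3) against 8.11 ± 0.030. The difference was -0.01, and 4 genes had a lower and 6 a higher mean in the knockout (3 and 7 after quantile normalization). Without wild type replicate 1, 7 were lower and the difference was -0.10, and without wild type replicate 2 it was 0.06. Wild type replicate 1 was the lowest of the 6 arrays in 5 of the 10 genes, as in 4 of the 14 sterol genes, against 15.2% of all genes.

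Genes that supply the arm with acetyl-CoA and NADPH had lower knockout means, within the spread of the arrays. Acly, which splits citrate to acetyl-CoA, read 8.27, 8.19 and 8.25 in wild type replicates 1 to 3, against 8.20, 8.33 and 7.93 in the knockout ones, and only knockout replicate 3 stood below the others. Acss2, which makes acetyl-CoA from acetate, read 5.48, 6.31 and 5.28 in wild type replicates 1 to 3, against 5.21, 5.55 and 5.21 in the knockout ones. Wild type replicate 2 stood apart there, and the log2 fold change of -0.37 (SE 0.257) was -0.06 without it and -0.19 with array weights. Me1, malic enzyme, a source of NADPH, read 9.06, 8.64 and 9.34 in wild type replicates 1 to 3, against 8.88, 8.59 and 8.83 in the knockout ones, with a log2 fold change of -0.25 (SE 0.206) that was -0.38 with array weights. The mean of these 3 genes was 7.60, 7.71 and 7.63 in wild type replicates 1 to 3, against 7.43, 7.49 and 7.32 in the knockout ones. The groups did not overlap in that mean, although they overlapped in each of the 3 genes, and the 3 were set together after their values were seen.

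The chain-building genes Fasn and Acaca had the smallest SDs within genotypes of the 28 members. Fasn, fatty acid synthase, read 9.07, 9.09 and 8.99 in wild type replicates 1 to 3, against 9.01, 9.01 and 9.08 in the knockout ones. The 6 arrays lay within 0.101 of each other, and the log2 fold change was -0.01 (SE 0.144) with a 95% interval of -0.34 to 0.31. Acaca, acetyl-CoA carboxylase, the committed step, read 6.83, 7.03 and 7.07 in wild type replicates 1 to 3, against 7.04, 7.00 and 7.14 in the knockout ones, and only wild type replicate 1 lay below the knockout range. Its log2 fold change was 0.08 (SE 0.158). The median SD within genotypes was 0.297 over the 28 members and 0.207 over all genes, and in Fasn it was 0.047.

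All 5 elongases and desaturases had a higher mean in the knockout, each by less than its SD within genotypes, although array weights turned Elovl5 and Elovl6. Elovl6, which lengthens palmitate, read 6.89, 7.84 and 7.87 in wild type replicates 1 to 3, against 7.83, 7.24 and 7.64 in the knockout ones. Its wild type replicate 1 lay far below the other 5 arrays, and without it the log2 fold change of 0.04 turned to -0.29. Scd1, the desaturase that makes oleate, read 7.09, 7.83 and 7.33 in wild type replicates 1 to 3, against 7.61, 7.50 and 7.23 in the knockout ones, lowest at wild type replicate 1 and highest at wild type replicate 2. The log2 fold change was 0.03, and -0.13 without wild type replicate 1. Elovl5, an elongase of polyunsaturated chains, read 8.19, 8.41 and 8.64 in wild type replicates 1 to 3, against 8.25, 8.79 and 8.26 in the knockout ones, with a log2 fold change of 0.02 that was -0.16 without knockout replicate 2. Fads1 and Fads2, the desaturases of polyunsaturated fatty acids, are neighbouring genes on chromosome 19. Fads1 read 10.30, 10.62 and 10.03 in wild type replicates 1 to 3, against 10.68, 10.49 and 10.38 in the knockout ones, and Fads2 read 8.37, 8.71 and 8.67 in wild type replicates 1 to 3, against 8.53, 8.79 and 9.04 in the knockout ones. Their log2 fold changes were 0.20 (SE 0.177) and 0.20 (SE 0.189), and with array weights 0.39 and 0.10. Knockout replicate 1 was the highest array for Fads1 and knockout replicate 3 for Fads2, so the pair did not share its order of arrays.

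Among the regulators Insig1 had the largest difference of all 28 members. Insig1, which retains SREBPs in the endoplasmic reticulum and is itself a known SREBP target, read 7.22, 7.14 and 7.68 in wild type replicates 1 to 3, against 7.17, 6.80 and 6.24 in the knockout ones. Knockout replicates 2 and 3 lay below all wild type arrays, and knockout replicate 1 lay just above the lowest wild type array. The level in the knockout was 0.654 times that in wild type, a log2 fold change of -0.61 (SE 0.259) with a 95% interval of -1.20 to -0.03, which did not pass (limma adjusted p = 1.0, unadjusted p = 0.0424, rank 632 of 22180 genes by p). Single arrays bore on its size, as leaving out knockout replicate 3 gave -0.36 and leaving out wild type replicate 3 gave -0.45. Insig2, the related retention factor outside the list, had a log2 fold change of -0.12.

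Srebf1 read 6.54, 7.21 and 6.37 in wild type replicates 1 to 3, against 6.87, 6.99 and 6.53 in the knockout ones, and Srebf2 read 7.88, 8.76 and 8.18 in wild type replicates 1 to 3, against 7.92, 8.16 and 8.20 in the knockout ones. In wild type cells both were highest at replicate 2. The log2 fold changes were 0.09 (SE 0.243) for Srebf1 and -0.18 (SE 0.234) for Srebf2. The former was 0.28 with array weights, and the latter 0.06 without wild type replicate 2. SREBPs are controlled by cleavage as well as by transcript level, and cleavage was not measured. Stard4, a cytosolic cholesterol carrier, read 4.44, 4.44 and 4.93 in wild type replicates 1 to 3, against 4.68, 4.37 and 4.79 in the knockout ones, with a log2 fold change of 0.01.

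**Figure D3:**
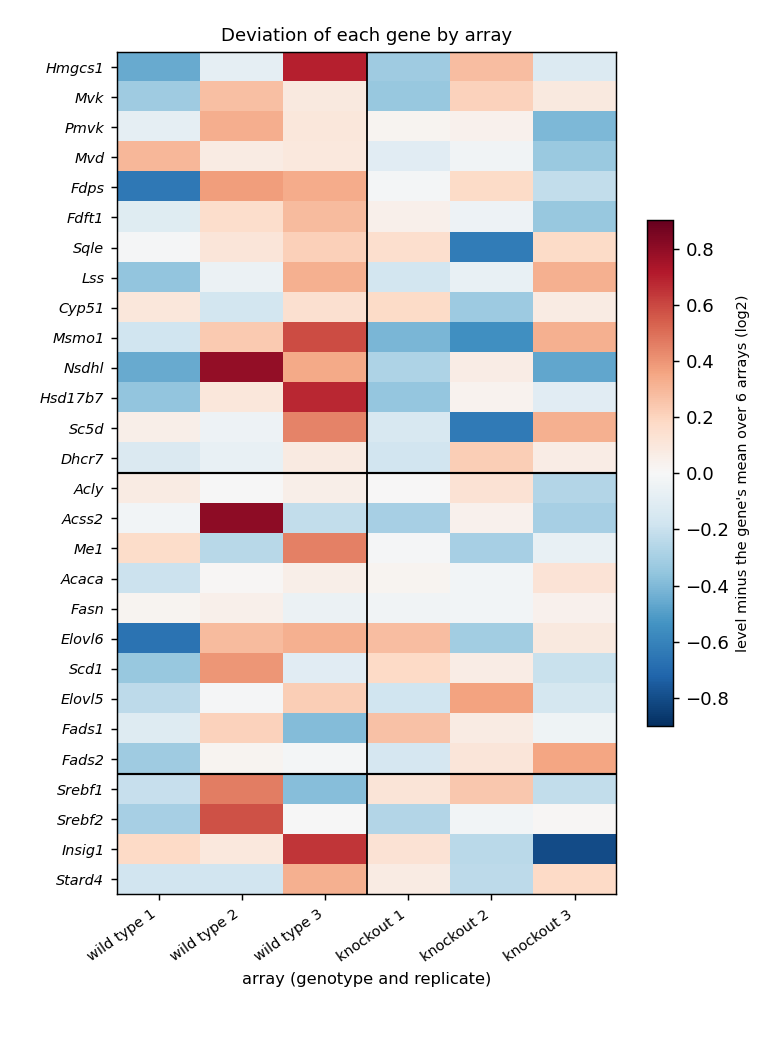
Deviation of each gene (rows, ordered by arm) from its own mean over the 6 arrays (columns), in log2 units, red above and blue below. Wild type replicate 1 is the lowest array in 10 of 28 genes, against 15.2% of all genes. Wild type replicate 3 is the highest in 11, against 14.1% of all genes, and Insig1 is lowest on knockout replicate 3.

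Averaged over the members, the wild type arrays lay further apart than the knockout arrays. The mean over all 28 was 7.32, 7.65 and 7.68 in wild type replicates 1 to 3, against 7.43, 7.44 and 7.43 in the knockout ones, with SDs of 0.200 and 0.009. This was not particular to the members. The SDs were 0.219 and 0.073 in 16 sterol genes outside the list, and 0.154 and 0.046 in 26 such fatty acid genes. Wild type replicate 1 had the lowest mean of the 6 arrays in both of these sets. Of the 3 wild type arrays, replicate 1 was lowest in 18 of 28 members, 11 of them among the 14 sterol genes, against 31.0% of all genes. Replicate 3 was the highest wild type array in 9 of 14 sterol genes, against 25.2% of all genes. Replicate 2 was the highest in 5 of 10 fatty acid genes, against 36.2% of all genes. Among the knockout arrays no replicate was lowest in more than 10 of 28 members, against 29.6% to 35.4% of all genes by replicate. Genes on 1 array share that array, so these counts are not independent.

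Set against each other within an array, the sterol arm lay below the fatty acid arm by an amount that depends on the probes and has no meaning as abundance. The change of that amount between arrays can be read. It was -0.85, -0.83 and -0.54 in wild type replicates 1 to 3, against -0.97, -0.93 and -0.83 in the knockout ones. Knockout replicate 3 lay above wild type replicates 1 and 2, so the groups overlapped, if by little. The means were -0.74 ± 0.173 (SD, n = 3) and -0.91 ± 0.072, a difference of -0.17. This difference became -0.28 when arrays were weighted and -0.07 without wild type replicate 3. With the median level of each arm on each array it was -0.31, which rests on levels of different genes without a common scale. Same-numbered arrays, which the labels do not give as pairs, differed by -0.12, -0.10 and -0.29, each lower in the knockout. In the sterol arm alone they differed by 0.05, -0.24 and -0.36, and in the fatty acid arm by 0.17, -0.14 and -0.07.

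**Figure D4:**
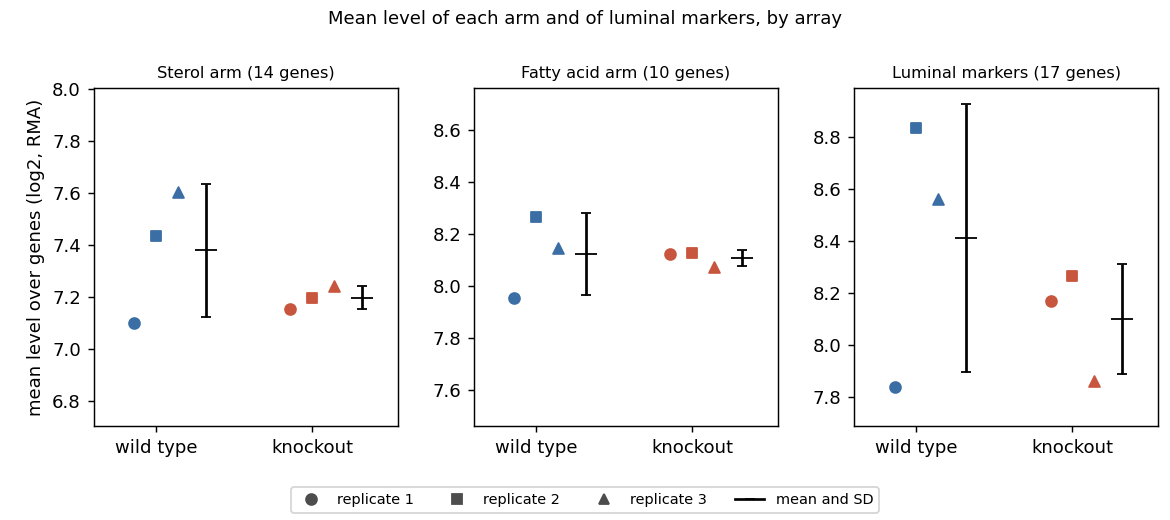
Mean log2 level over the genes of the sterol arm, the fatty acid arm and a list of luminal markers on each array (points, 1 shape per replicate number), with the mean and SD of each genotype beside them. Each panel spans the same range of log2 units, and wild type replicate 1 is the lowest array in all 3 panels.

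Luminal markers had the same lowest wild type array as both arms. The 17 luminal markers averaged 7.84, 8.83 and 8.56 in wild type replicates 1 to 3, against 8.17, 8.27 and 7.86 in the knockout ones, and 16 of 17 had a lower mean in the knockout (15 after quantile normalization, 14 with array weights), with a median log2 fold change of -0.27. As in both arms, wild type replicate 1 was lowest and wild type replicates 2 and 3 were the highest of the 6 arrays. In the knockout the order differed from the sterol arm, since replicate 3 was lowest in luminal markers and highest in the sterol arm. The fatty acid arm had the order of the luminal markers on all 6 arrays, though its knockout arrays read only 8.07 to 8.13. Krt8 read 11.01 to 11.86 on the wild type and 11.05 to 11.34 on the knockout arrays, and Krt18 10.92 to 12.16 and 10.61 to 11.21. Anxa3 had the only unadjusted limma p under 0.05 among the 17, where 3.32% of all genes had one. Its log2 fold change was -0.48, and all knockout arrays lay below all wild type arrays, as in 4.05% of all genes. With array weights 5 of 17 had an unadjusted limma p under 0.05, against 8.88% of all genes. The part of luminal cells in the values of either arm was not tested.

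Markers of other cells of the gland differed between genotypes in several genes, none past the threshold after adjustment. Fibroblast markers averaged 6.38 to 6.71 in wild type and 6.99 to 7.06 in the knockout, and 10 of 10 had a higher mean in the knockout (9 of 10 after quantile normalization, median centring or array weights). At an unadjusted p under 0.05 there were 4 of 10, all higher, against 1.61% of all genes, and in 2 of 10, Dpt and Lum, every knockout array exceeded every wild type array, against 3.63%. Dpt read 6.06, 6.71 and 6.01 in wild type replicates 1 to 3, against 7.45, 7.47 and 7.50 in the knockout ones, a log2 fold change of 1.21 (SE 0.211). Lum read 3.98 to 4.23 and 4.72 to 6.09, a log2 fold change of 1.28 (SE 0.294). Pdgfra and Dcn had log2 fold changes of 0.85 and 0.54 with arrays that overlapped, and Col1a1 one of 0.13 (limma adjusted p = 1.0 for all 5 genes).

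Markers of adipocytes, the other lipid-making cells of the gland, averaged 5.95 to 6.01 in wild type and 6.05 to 6.13 in knockout cells, with 12 of 18 higher (11 after quantile normalization or median centring, 14 with array weights). Fabp4, a fatty acid binding protein, had the smallest p of all 22180 genes. It read 8.04 to 8.22 on the wild type and 9.21 to 9.72 on the knockout arrays, a log2 fold change of 1.31 (SE 0.179) that did not pass (limma adjusted p = 0.818). Cd36, a fatty acid transporter, had a log2 fold change of 0.37 and Retn, resistin, one of 0.18, both with all knockout arrays above all wild type arrays, while Cidea, a lipid droplet protein, had one of -0.37 with all of them below (limma adjusted p = 1.0 for the 3 genes). Fabp4 and Cd36 are also known in endothelial and other cells. Adipoq, the defining adipokine, read 4.13 to 4.49 on the 6 arrays, and Plin1 5.75 to 6.05.

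Milk genes averaged 6.27 to 6.45 in wild type, against 6.61, 6.19 and 7.40 in the knockout. Of the 12, 7 had a higher and 5 a lower mean in the knockout (8 and 4 with array weights). Their median log2 fold change was 0.11, and the 3 milk genes described next are all among the higher ones. Csn2 read 8.03 on knockout replicate 3 and 2.86 to 3.95 on the other 5 arrays. Lalba was high on knockout replicates 1 and 3, reading 7.38, 6.82 and 5.87 in wild type replicates 1 to 3, against 9.47, 6.72 and 9.69 in the knockout ones, a log2 fold change of 1.94 (SE 0.720). Csn3 read 7.52 to 7.78 on the wild type and 7.90 to 9.10 on the knockout arrays, a log2 fold change of 0.84 (SE 0.280) without overlap. None of the 3 passed (limma adjusted p = 1.0 for each). Endothelial markers averaged 5.37 to 5.60 and 5.46 to 5.61, and leukocyte markers 4.96 to 5.09 and 4.98 to 5.22. Pecam1 read 5.66 to 6.39 and Ptprc 3.28 to 3.75 over all 6 arrays. Whether these cells bear on the lipid genes was not tested.

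Other genes of the pathway, from lists drawn up by role, gave no call either (limma, 0 of 49 at an adjusted p under 0.05, and 1 of 49, Elovl3, at an unadjusted p under 0.05, where 3.32% of all genes were). With array weights 7 of 49 had an unadjusted p under 0.05, where 8.88% of all genes had. Of 16 further sterol genes, 8 had a lower and 8 a higher mean in the knockout, with a median log2 fold change of -0.02. Ebp, the sterol isomerase, had a log2 fold change of -0.47 (SE 0.254), and Mbtps1, the protease that makes the first cut in SREBPs, of -0.34. Npc1l1, a sterol transporter, had one of 0.15, and Scap, the SREBP escort protein, one of -0.17. Of 26 further fatty acid genes, 12 were lower and 14 higher, with a median of 0.01. Elovl3, an elongase, read 4.22 to 4.57 on the wild type and 4.58 to 5.34 on the knockout arrays, which did not overlap, with a log2 fold change of 0.52 (limma adjusted p = 1.0). Elovl7, another elongase, had a log2 fold change of -0.92 (SE 0.421), and read 6.51, 7.93 and 8.28 in wild type replicates 1 to 3, against 7.11, 6.54 and 6.32 in the knockout ones. Agpat2, which builds phosphatidic acid, had a log2 fold change of -0.34 with groups that did not overlap, and Dgat1, which completes triglycerides, of -0.56. Of 7 genes of the oxysterol receptor LXR and its targets, 5 were lower, and Lpcat3, a phospholipid remodelling enzyme, had a log2 fold change of -0.38 with groups that did not overlap. Abcg1, a cholesterol exporter, had a log2 fold change of -0.27, Abca7, a related transporter, of -0.11, and Mylip, which degrades lipoprotein receptors, of 0.15.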

How the data were processed

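Gene expression was measured on 6 arrays of sorted basal cells, 3 per genotype. The deposited values are log2 levels per probe set, made by the authors with RMA (background correction, normalization between arrays, summary of probes) and Transcriptome Analysis Console 4.0, per the submitters' processing notes. Of 41345 rows, 23521 had 1 gene symbol, 1814 several and 16010 none. Rows with 1 symbol were used, and the row of highest mean was kept per gene, leaving 22180 genes; each measured member had 1 row. The genotype difference of every gene was fitted with limma 3.58.1 (R 4.3.3), using lmFit and a moderated variance whose prior follows the mean level; tests were two-sided, with Benjamini-Hochberg adjustment over all genes and a threshold of 0.05. The fit was first tested on simulated data. Arm values are means of log2 levels, with SD over arrays.

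The members and lists were chosen with earlier results of these data known. All 28 members may be named; of each other list the 4 genes of smallest p, any gene past the threshold, and defining cell type markers. Erg28, Insig2 and Retn were named after their values were seen. Same-numbered arrays deviated together weakly (r of 0.121, 0.250 and 0.127 across genes). The r between wild type replicate 1 and knockout replicate 3 was as large, at 0.130. The labels are silent on pairing, so it was used only as an alternative setting, and the main fit had no replicate term. Other settings tried were a flat and a robust prior, array weights, quantile normalization, median centring, a minimum mean level of 5, other choices of rows, pairing, a threshold of 0.1, arm medians, and each array left out. Figures were drawn with matplotlib 3.10.9.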

Additional observations from a re-analysis of the deposited data

How the results depend on the processing

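No alternative brought a gene past the threshold: 0 members and 0 of all genes passed under each of the 15 other fits, or at an adjusted p under 0.1, and the lowest adjusted p of a member was 0.443 (Nsdhl without wild type replicate 1). With same-numbered arrays as a replicate block, Msmo1 had an unadjusted p of 0.0453 and Insig1 of 0.0446 (limma adjusted p = 0.991 for both), the count of all genes at an unadjusted p under 0.05 rose from 736 to 1112, and no call changed. The median level of the members on each array was also used in place of their mean. It gave a sterol arm difference of -0.37 and a difference between arms of -0.31. In the sterol arm that median fell on different genes on different arrays, whose levels have no common scale. Without any one array the sterol arm difference ranged from -0.32 to -0.07, the fatty acid arm difference from -0.10 to 0.06, and the difference between arms from -0.22 to -0.07. The genes with a lower knockout mean then numbered 8 to 13 of 14 and 3 to 7 of 10.

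Direction turned under at least 1 alternative in 15 of 28 members, none of them past the threshold; the cause was not tested. Quantile normalization turned Mvk to 0.0087, Fdps to 0.0001 and Fasn to 0.0036. Array weights turned Lss to -0.15, Dhcr7 to -0.044, Fasn to 0.0095, Elovl6 to -0.027, Elovl5 to -0.15 and Stard4 to -0.12. Leaving out 1 array gave ranges of -0.37 to 0.21 for Hmgcs1, -0.19 to 0.14 for Mvk, -0.38 to 0.13 for Fdps, -0.34 to 0.057 for Sqle, -0.10 to 0.23 for Lss, -0.15 to 0.10 for Cyp51 and -0.017 to 0.18 for Dhcr7. In the other genes they were -0.17 to 0.027 for Acly, -0.042 to 0.0079 for Fasn, -0.29 to 0.21 for Elovl6, -0.13 to 0.24 for Scd1, -0.16 to 0.13 for Elovl5, -0.082 to 0.34 for Srebf1, -0.38 to 0.060 for Srebf2 and -0.072 to 0.18 for Stard4. The other 13 members kept their direction under every alternative run. No measure of signal over background was used here, so dim genes such as Stard4 and Lss cannot be told from background.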
